A study of Drosophila melanogaster with 6 samples.

Results

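Transcript levels were described in whole wild type Drosophila melanogaster embryos at stage 16, late in embryogenesis, from the 2 arrays labelled wild type among the 6 arrays of the series. The members were the probe sets that carry exactly 1 gene symbol and are no array control, 13647 of 18952 probe sets. They stood for 11982 genes; a gene with several was read from the one that was brightest, on average, across all 6 arrays. The study set out to find what the transcription factor Grainy head (Grh) does in the embryo by comparing altered grh genotypes with wild type. A group of 2 arrays carried grhB37, labelled a grh mutant. A second group of 2 arrays carried 69B>grh, in which 69B, a GAL4 driver line active in the embryonic epidermis, drives grh overexpression. The wild type embryos were of the strain w1118, a laboratory strain mutant for the eye colour gene white. All groups were aged to stage 16. No group carried the driver alone. Nothing in the labels tells whether the strains had a common background or whether replicates were separate collections of embryos, so P-values reflect the scatter of these arrays alone, possibly a technical one.

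At this stage the embryo has finished most of its morphogenesis: the germ layers have formed muscles, gut, nervous system, tracheae and epidermis, and the epidermis is laying down the chitin and protein cuticle of the first larva. Grh is a transcription factor of epithelia that acts on genes for cuticle, junctions and wound repair. Whole embryos mix all of these tissues, so fewer cells of a type and less RNA per cell cannot be told apart in any value below.

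A value is the deposited log2 reading of a probe set, so a step of 1 is a doubling of signal. The lowest reading, 2.27, was a floor common to the 6 arrays, and the highest was 14.1. A gene was called detected where it read 4 or more on both wild type arrays, dim where it read under 4 on both, and at the floor where both readings lay within 0.05 of the lowest value. Probe sets differ in how strongly their probes bind, so an order of readings is not an order of RNA amounts, and a reading at the floor does not show that a gene was silent. By this rule 7016 of 11982 genes were detected in wild type (58.6%) and 4878 were dim. A further 88 genes passed on only 1 of the 2 arrays. At the floor lay 3073 genes (25.6%), and 1805 dim genes (15.06%) lay above it. The median reading was 5.16 over all genes and 7.06 over the detected genes, whose middle range, from the lower to the upper quartile, ran from 5.80 to 8.47. A mean of at least 8 was reached by 2259 genes (18.85%), of at least 10 by 651 genes (5.433%), of at least 12 by 122 genes (1.018%) and of at least 13 by 34 genes (0.2838%). Bright readings were therefore rare.

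**Figure D1:**
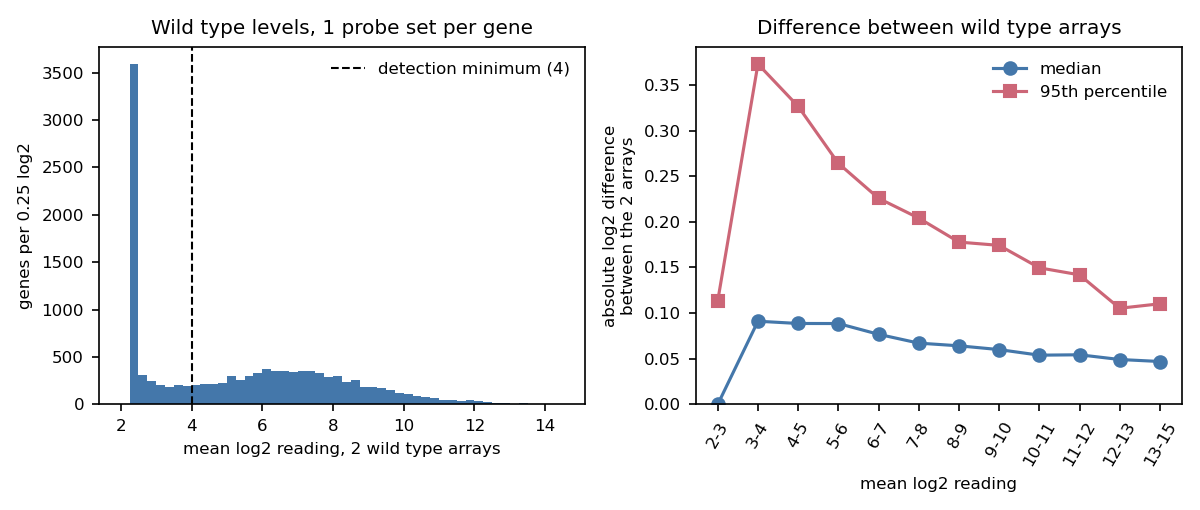
Left, number of genes per 0.25 log2 units of the mean wild type reading, with the detection minimum of 4 as a dashed line. Right, the median and the 95th percentile of the absolute log2 difference between the 2 wild type arrays, for genes grouped by mean reading. The floor makes the tall bar at the low end, and above it the difference between arrays narrows as the reading grows.

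The pair of wild type arrays repeated each other closely. Over the 7016 detected genes the median absolute difference between them was 0.0703 log2 units. Replicate 1 was the higher array for 66.2% of these genes, by a median of 0.038. The median difference was 0.0886 for genes between 4 and 5 and 0.0470 for genes at 13 or more, and the 95th percentile was 0.3265 in the dimmer group and 0.1102 in the brighter one. Only 548 detected genes (7.81%) differed by 0.2 or more, and 7 differed by 0.5 or more. Across all 11982 genes, which share the floor and are not independent replicates, the arrays correlated at r = 0.99931. The largest gap was that of Pdp1, a clock-linked transcription factor gene, at 5.81 on replicate 1 and 6.49 on replicate 2. It was followed by CG9945 at 6.31 and 6.91, CG12883 at 4.88 and 4.29, and CG13339 at 5.28 and 4.74. The splicing regulator gene mbl read 4.41 and 4.94. Fic read 4.68 and 4.17, Rrp45 4.69 and 4.19, and CG33093 5.22 and 4.73. All 8 had a mean under 7, and either array could be the higher one.

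The border of detection cut through a continuous range of readings. Just inside it lay Ipo9, with 4.075 and 4.001 on replicates 1 and 2, CG46301 with 4.01 and 4.04, and CG2909 with 4.01 and 4.14. Just outside lay the Polycomb group gene esc with 3.999 and 3.985, CG15537 with 3.887 and 3.998, and CG31606 with 3.934 and 3.997. The means of these 6 genes spanned only 3.94 to 4.07.

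Whether a gene had a name went along with its reading. Among genes known only by a CG number 2403 of 5219 were detected (46.04%) and 36.75% lay at the floor, against 4613 of 6763 genes with another name (68.21%) and 17.08% at the floor. Of the 122 genes with a mean of at least 12, only 15 had a CG number alone. Probe sets without any symbol were dimmer still: 693 of 4720 were detected (14.68%) and 77.84% lay at the floor. Several probe sets of a gene often disagreed. Of 1094 genes with more than 1 probe set, 238 had every probe set detected, 346 had every probe set dim and 491 had both kinds. Because the brightest probe set stood for a gene, 488 of the 740 detected genes with several probe sets also held a dim one.

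Among the genes ranked, the brightest readings belonged to the machinery of protein synthesis, with a few cuticle, muscle and mitochondrial genes among them. Cytosolic ribosomal protein genes filled 26 of the 40 brightest places. RpL23 read 13.89 and 13.84 on the 2 arrays, RpL15 read 13.79 and 13.77, and the stalk protein gene RpLP1 read 13.77 and 13.78. RpS18 followed at 13.76 ± 0.02 (SD, n = 2), RpLP0 at 13.74 ± 0.02 and RpL41 at 13.72 ± 0.09, and RpL28, the dimmest of the 26, read 12.95 ± 0.06. The other ribosomal genes in this set were RpL29, RpS27A, RpL39, RpL37A, RpS28b, RpLP2, RpL36A, RpS29, RpS21, RpS15, RpS12, RpL32, RpL10Ab, RpS7, RpS26, RpL3, RpS20, RpS30 and RpL40. Rack1, a scaffold protein of the small ribosomal subunit, read 13.46 and 13.42, and the translation factor gene eEF5 read 13.12 and 13.07. The 2 readings of RpL41 alone, 13.65 and 13.78, spanned several other places, so neighbouring places in the order were not separated.

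The gene at the top of the ranking, nur, was not a ribosomal one. Probe sets outside the ranking, which was limited to those with 1 symbol, read up to 14.10 and 14.05 on replicates 1 and 2. The gene nur read 13.88 and 13.90, and the muscle LIM protein gene Mlp60A came eighth at 13.68 on both arrays. Cuticle protein genes took 3 of the 40 places: Cpr51A with 13.52 and 13.45, TwdlM with 13.34 and 13.31, and Cpr65Ea with 13.29 and 13.25. Hsc70-4, a chaperone made without heat stress, read 13.30 on both arrays, and Nplp2, named as a neuropeptide-like precursor, read 13.31 and 13.24. Vha16-1, a membrane subunit of the vacuolar proton pump, read 13.20 and 13.22. The lower places held CG13159 at 12.97 ± 0.07, the mitochondrial ADP/ATP carrier gene sesB at 12.94 ± 0.00, the metallothionein gene MtnA at 12.94 ± 0.01 and the ATP synthase subunit gene ATPsynF at 12.91 ± 0.01. CG13159 was the only gene of the 40 known by a CG number alone.

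**Figure D2:**
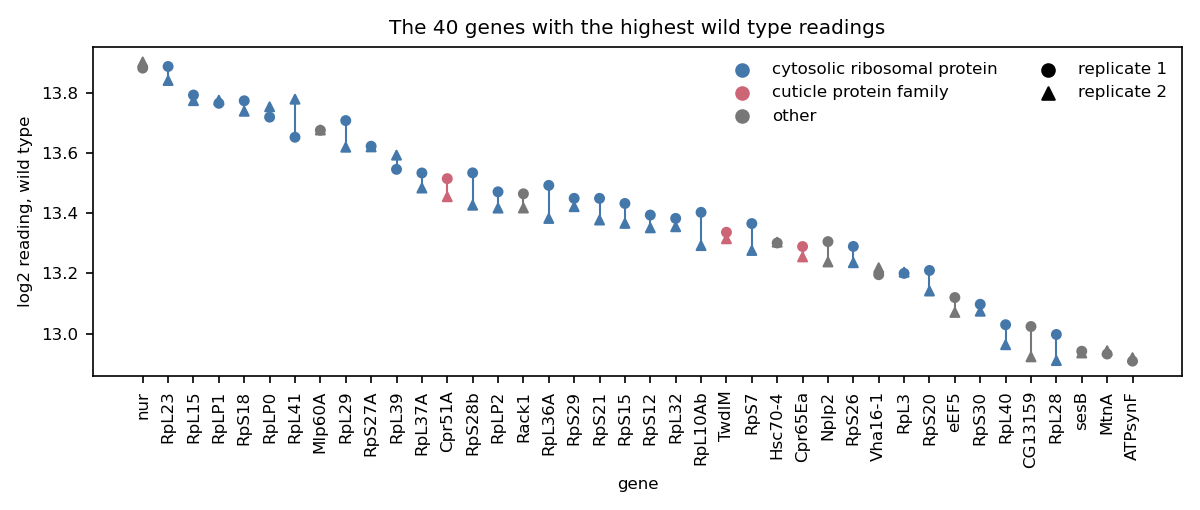
Log2 readings of the 40 genes with the highest wild type means, on replicate 1 (circles) and replicate 2 (triangles), coloured by group, with a line joining the arrays of a gene. All 40 readings lie near or above 12.9, and the lines are often as long as the step from a gene to the next.

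Widened to the 100 brightest genes, the set held 28 of 38 ranked cytosolic ribosomal protein genes and 13 of 104 ranked cuticle protein genes. It also held 9 of 66 genes of the respiratory chain and ATP synthase, 6 of 19 translation factors, 4 of 14 muscle genes, 3 of 31 proton pump genes and 3 of 16 basement membrane genes. Genes read only by probe sets with several symbols or none were not ranked, so these totals need not be whole families. The muscle genes were Mlc1, Act87E, Prm and Tm2, and the basement membrane genes were Col4a1, vkg and SPARC. Only 7 of the 100 had a CG number alone. The place of a gene depends on the probe set that stands for it: 6 of the 40 brightest genes had further probe sets, and for 4 of them a further one was dim. Further probe sets of Mlp60A read 3.15 and 3.37, of RpS7 2.27, of RpS29 2.27 and 13.41, and of RpL3 2.43 and 6.83. RpS30 and Vha16-1 had further readings of 5.20 and 11.66. Probe sets named for 1 gene can also bind near-identical copies. Of the 40, 17 were of the type marked s and 2 of the type marked a in their probe set names, which on this kind of array flag probes shared between transcripts. Such transcripts can belong to 1 gene or to several, so the marks alone do not show binding to other copies.

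The tissue lists, taken as markers of the cell types a whole embryo holds, were read against the 58.6% of all genes that were detected and the median of 5.16. All 14 listed muscle genes with a probe set of their own were detected, at a median of 11.52. The myosin light chain gene Mlc1 read 12.83 and 12.85 on the 2 arrays, the actin gene Act87E read 12.55 and 12.56, and the paramyosin gene Prm read 12.31 and 12.20. Tropomyosin Tm2 followed at 12.21 ± 0.06 and troponin T, encoded by up, at 12.05 ± 0.04. The dimmest muscle gene still read 7.75. All 14 genes of muscle attachment and tendon were detected too, at a lower median of 8.09, and led by the laminin gene LanA at 11.57 ± 0.02. The integrin-linked genes stck and Ilk read 11.01 ± 0.04 and 9.93 ± 0.03, and the integrin subunit genes if and mys read 9.77 ± 0.02 and 9.66 ± 0.11.

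Neuronal genes were mostly detected, at middling readings. Of 20 neuronal genes 17 were detected, at a median of 7.07 over the list. The brightest was nrv3, for a sodium pump subunit, with 10.19 and 10.16. The RNA-binding protein gene fne read 10.08 on both arrays and Gad1, for the enzyme that makes GABA, read 8.92 and 8.98. The synaptic genes Snap25 and unc-13 read 8.53 ± 0.05 and 8.04 ± 0.10. The dim members were the active zone gene brp at 3.98 and 3.99, just under the minimum, the microtubule-binding protein gene futsch at 3.13 ± 0.04 and the sodium channel gene para at 2.88 ± 0.05. The pan-neuronal marker elav, named outside the rule after its values were seen, read 7.26 and 7.63.

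Neural stem cell genes were fewer and dimmer, at 8 of 11 detected and a median of 6.10. They were led by insc, which orients asymmetric divisions, at 8.79 ± 0.07, and the POU factor gene nub at 8.78 ± 0.15. The cell fate adaptor gene mira read 7.31 ± 0.03, pros 6.66 ± 0.04 and brat 6.62 ± 0.19. The neuroblast transcription factor genes wor at 3.58 ± 0.12, ase at 2.95 ± 0.09 and l(1)sc at 2.27 were dim. Glial genes had 9 of 12 detected, at a median of 7.34. The astrocyte gene alrm read 10.45 and 10.44, Gli read 10.27 and 10.41, and nrv2 read 9.86 and 10.01. Both Gli and nrv2 also stand in the septate junction list, so their signal need not come from glia. Glutamine synthetase Gs2 followed at 9.52 ± 0.02 and loco at 7.93 ± 0.02. The early glial switch genes gcm, at 3.17 ± 0.16, and gcm2, at the floor, were dim, as was axo at 3.02. The glial identity gene repo, named outside the rule after its values were seen, read 7.91 and 7.90.

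Of 23 neuropeptide and peptide hormone genes, 13 were detected (56.52%), close to the share of all genes, at a list median of 4.57. The list leaves out Nplp2, named as a neuropeptide-like precursor, which was placed in the hemocyte list and read 13.31 and 13.24. The brightest gene of the list, Nplp1, read 8.27 and 8.40 on the 2 arrays. It was followed by the allatostatin gene AstC with 7.35 and 7.37 and the ecdysis triggering hormone gene ETH with 7.02 and 6.87. Mip read 6.61 ± 0.07, Dh31 6.53 ± 0.08, Ms 6.19 ± 0.01 and Proc 5.83 ± 0.01. The other detected members were nearer the minimum. The bursicon subunit gene Burs read 5.40 ± 0.05, SIFa 5.29 ± 0.13, sNPF 4.94 ± 0.26, the clock neuron peptide gene Pdf 4.64 ± 0.13, Lk 4.57 ± 0.20 and the eclosion hormone gene Eh 4.50 ± 0.23. Dim members were the adipokinetic hormone gene Akh at 3.81 ± 0.19, NPF at 3.62 ± 0.11, Crz at 3.62 and Dh44 at 2.83 ± 0.17.

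Blood cell and fat body lists each held bright and dim genes. Of 16 hemocyte genes 11 were detected. Apart from Nplp2, the matrix protein genes Ppn and Glt read 11.84 ± 0.04 and 10.68 ± 0.03, and the prophenoloxidase genes PPO2 and PPO1, of the melanin-forming crystal cells, read 9.43 ± 0.09 and 8.66 ± 0.09. The larval blood cell genes He, at 2.60 ± 0.15, and Hml, at 2.49 ± 0.07, were dim, and lz and PPO3 lay at the floor. Of 10 fat body genes 7 were detected. The lipoprotein gene apolpp read 12.51 and 12.50, Apoltp read 8.93 and 8.88, and the lipase gene bmm read 7.89 and 7.93. Lip4 and svp read 7.07 ± 0.08 and 6.88 ± 0.04. The genes of the late larval fat body, Lsp2, Fbp1 and Fbp2, read 2.39, 2.28 and 2.28.

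Among internal organs, 10 of 17 midgut genes were detected (58.82%), at a median of 5.04, close to the 58.6% and 5.16 of all genes. They were led by the Jonah proteases Jon65Aiv at 8.56 ± 0.06 and Jon65Aiii at 8.42 ± 0.10, the endoderm factor gene GATAe at 8.30 ± 0.06, dve at 7.86 ± 0.04 and the maltase gene Mal-A4 at 7.19 ± 0.01. Dim digestive genes included LManIII at 3.62 ± 0.02, thetaTry at 3.24 ± 0.06, Jon25Bi at 2.85 and betaTry at 2.59 ± 0.06. Of 12 genes for Malpighian tubules and nephrocytes, the excretory cells, 10 were detected. They were led by tsh at 7.96 ± 0.09, the ion transporter gene NKCC at 7.75 ± 0.05 and the chloride channel gene ClC-a at 6.65 ± 0.09. The gene tsh is also listed below as a trunk selector, so its signal need not come from these cells. The nephrocyte adhesion genes kirre and sns, which also act in muscle fusion, read 6.56 ± 0.04 and 6.51 ± 0.01. Of 13 heart and dorsal mesoderm genes 8 were detected (61.54%), again near the share of all genes. The heart matrix gene prc read 9.90 ± 0.01 and the factor genes Hand 8.47 ± 0.04, mid 6.15 ± 0.00, bin 5.67 ± 0.02 and pnr 5.01 ± 0.04. The factor genes Doc3, H15, Doc2 and Him of the same list were dim, at 3.90 ± 0.08, 3.59 ± 0.10, 2.85 and 2.37 ± 0.02.

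All 13 tracheal genes were detected, at a median of 7.64, though the brightest ones are not made by tracheae alone. The chitin-binding protein gene Gasp read 12.53 and 12.58, and the chitin deacetylase genes verm and serp read 12.35 and 12.29, and 12.14 and 12.15. Osi18 and uif followed at 10.35 ± 0.09 and 8.06 ± 0.02. The tracheal receptor gene btl, named outside the rule after its values were seen, was the dimmest of the list at 4.07 and 4.26. Of 14 salivary gland genes 7 were detected: the sulfotransferase gene pip led at 8.50 ± 0.05, followed by MsrA at 8.08 ± 0.10, the gland determinant gene fkh at 6.58 ± 0.06, wbl at 6.27 ± 0.10 and PH4alphaSG1 at 5.25 ± 0.05. The glue genes, which larvae use before pupation, lay at the floor, with Sgs8, Sgs7 and Sgs4 at 2.29, 2.28 and 2.27, and eyg was dim at 2.51.

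**Figure D3:**
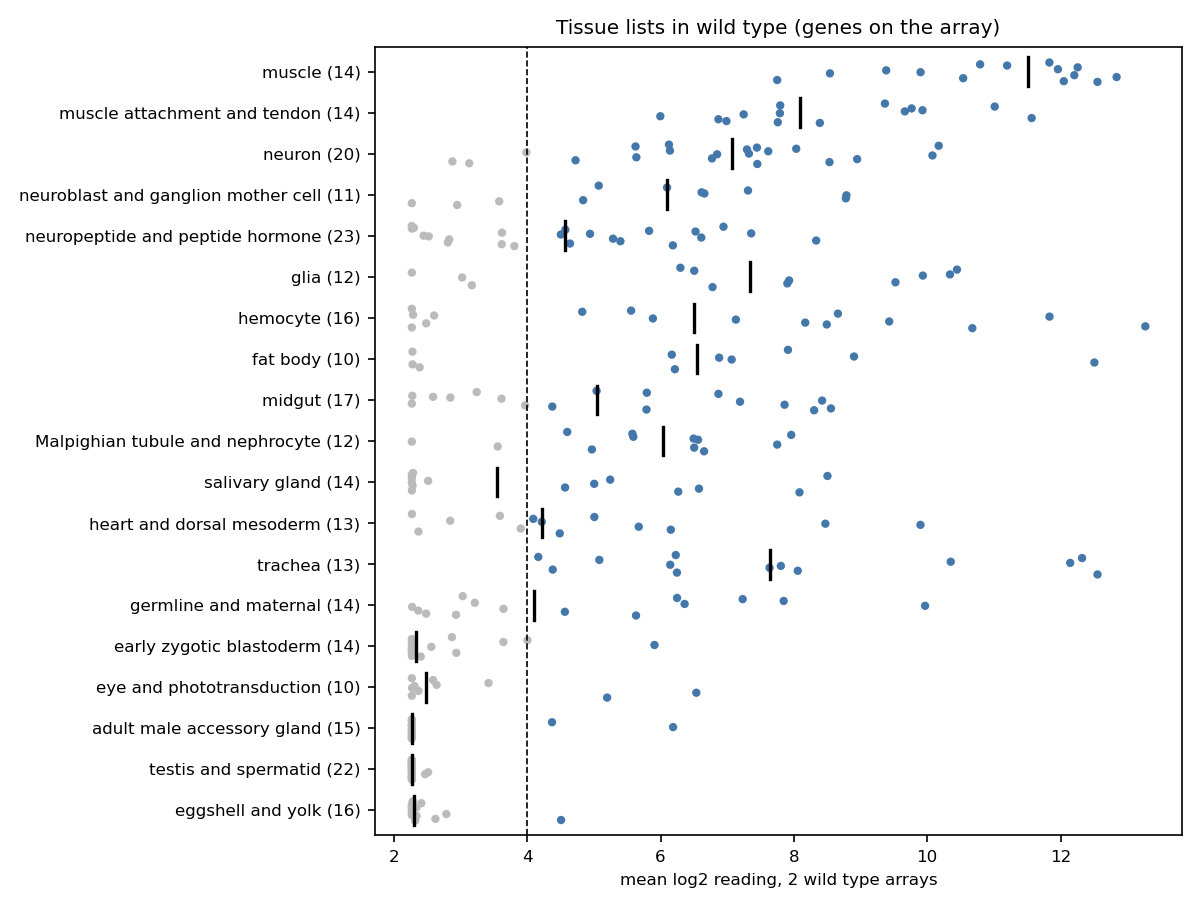
Mean wild type log2 reading of each gene of the 19 tissue lists (points, blue where detected and grey where not). The list's median is a bar and the detection minimum of 4 a dashed line. Beside each list stands the number of its genes with a probe set of their own. Muscle, tendon and tracheal genes all lie right of the line, and genes of the eye, testis, accessory gland, eggshell and blastoderm lie almost wholly at its left.

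Lists of earlier and later life were read next. They cover the blastoderm, the germline and adult organs rather than neighbouring embryonic stages, so they cannot check the labelled stage. Of 14 genes of the cellular blastoderm, the stage at which the first zygotic genes are read, 1 was detected. This was sna, a mesoderm and neuroblast factor gene, with 5.91 on both arrays. The gap genes hkb, tll and gt read 3.64 ± 0.07, 2.94 ± 0.02 and 2.56 ± 0.03, and the cellularisation gene slam read 2.87 ± 0.09. Germline and maternal genes had 7 of 14 detected, led by gcl at 9.97 ± 0.00, ovo at 7.85 ± 0.04, tud at 7.23 ± 0.02, stau at 6.36 ± 0.10 and bcd at 6.25 ± 0.03, several of which are also read in other tissues. The germline small RNA genes piwi, aub and spn-E were dim at 3.64, 3.21 and 3.03, and the germ cell gap junction gene zpg at 2.93.

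Lists of adult organs were mostly dim. None of 22 testis and spermatid genes was detected, and 20 lay at the floor: mia and betaTub85D had the highest readings at 2.51 ± 0.03 and 2.47 ± 0.03. Of 17 genes of the Mst family, many of them named for male-specific transcripts, 16 lay at the floor and Mst85C was detected, with 6.32 and 6.20. All 7 fertility genes of the Y chromosome lay at the floor. Of 15 accessory gland genes 13 lay at the floor. The detected ones were Acp95EF, with 4.20 and 4.54, and Acp65Aa, with 6.21 and 6.17, which encodes a cuticle protein and carries the prefix by name only. Of 16 eggshell and yolk genes only the yolk protein gene Yp3 was detected, with 4.49 and 4.53, while Fcp3C, Cp38, Cp19 and dec read 2.79, 2.62, 2.41 and 2.34. Of 10 eye genes the G protein gene Galphaq, at 6.54 ± 0.06, and the arrestin gene Arr1, at 5.20 ± 0.04, were detected. The vision genes ninaB, Arr2, Rh7 and ninaD were dim, from 3.42 down to 2.37.

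Genes that build chitin, the polysaccharide of the cuticle, formed a bright list. Of 20 genes of chitin synthesis and assembly 19 were detected, at a median of 10.53. Besides Gasp, verm and serp these were led by the chitin-binding protein gene obst-E, with 11.83 and 11.84, and by Gfat1, for the entry enzyme of the hexosamine pathway that feeds chitin, with 11.60 and 11.56. The only dim member was Chs2, the chitin synthase gene of the gut, at 2.55 ± 0.17. Of 17 catecholamine and pigmentation genes, which supply the compounds that tan the cuticle, 15 were detected at a median of 7.24. The dopa decarboxylase gene Ddc read 10.25 and 10.21, the laccase gene stw read 10.18 and 10.21, and amd read 9.66 and 9.62. The family members yellow-b and yellow-h read 9.37 ± 0.04 and 9.04 ± 0.03. The dim members were yellow-f at 2.48 ± 0.10 and ple at 2.38. The gene ple encodes tyrosine hydroxylase, the enzyme just before Ddc, and readings of different probe sets do not rank these steps.

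Cuticle protein families were partly bright and partly dark. Together they held 104 genes, of which 66 were detected and 16 lay at the floor. Of all genes 58.6% were detected and 25.6% lay at the floor. Of 24 Tweedle genes 20 were detected, with a family median of 10.62: after TwdlM came TwdlN at 12.79 ± 0.04, TwdlD at 12.72 ± 0.02, TwdlB at 12.66 ± 0.03 and TwdlW at 12.56 ± 0.02. The dim ones were Twdlalpha at 3.81 ± 0.07, TwdlS at 3.64 ± 0.11, TwdlO at 3.13 and TwdlR at 2.37 ± 0.09. Cpr genes, which share a chitin-binding motif, had 35 of 66 detected (53.03%, near the share of all genes) and 15 at the floor. Their median was 4.46 over the family and 9.36 over its detected members. Cpr47Eg, Cpr64Ad and Cpr64Ab read 12.49 ± 0.09, 12.32 ± 0.06 and 12.29 ± 0.02, while Cpr76Ba, Cpr49Ad, Cpr73D and Cpr78E read 3.53, 3.46, 3.37 and 3.31. Lcp, Ccp and Edg genes had 11 of 14 detected, led by Lcp65Ag3 at 12.84 ± 0.01, Lcp65Ac at 11.41 ± 0.09 and Ccp84Ac at 11.28 ± 0.08. Edg84A, Lcp9 and the pupal cuticle gene Pcp were dim at 2.39, 2.33 and 2.30. Close copies within these families can share probes, so the split between 2 copies is uncertain.

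The Osiris family, insect membrane protein genes that mostly lie side by side, mixed bright and floor members. Of 24 genes 11 were detected (45.83%, against 58.6% of all genes) and 10 lay at the floor. Osi15 read 12.03 and 12.05, Osi20 read 11.67 and 11.62, and Osi6 read 11.28 and 11.25. Osi2 and Osi19 read 10.93 ± 0.01 and 10.80 ± 0.06. In their order along the chromosome, Osi2 stood between Osi3 at 2.65 and Osi24 at 4.51, Osi6 between Osi5 at 2.27 and Osi7 at 5.81, and Osi15 between Osi16 at 2.27 and Osi14 at 8.81, while Osi18, Osi19 and Osi20 were a bright run at 10.35, 10.80 and 11.64.

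Epithelial junction genes were detected without exception. All 27 septate junction genes, which seal fly epithelia, were detected at a median of 9.80, from Ssk with 12.07 and 12.01 down to 5.82. The smooth septate junction genes mesh and Tsp2A read 11.25 ± 0.01 and 11.02 ± 0.07, and Lac read 10.51 ± 0.01. All 12 genes of apical polarity and adherens junctions were detected at a median of 7.78, with p120ctn at 10.44 on both arrays, pyd at 9.79 and alpha-Cat at 9.10 ± 0.01. The polarity genes sdt and aPKC read 8.28 ± 0.00 and 7.87 ± 0.09. All 16 basement membrane genes were detected at a median of 10.38. The collagen IV genes Col4a1 and vkg read 12.74 and 12.71, and 12.60 and 12.55, and SPARC, a collagen-binding protein gene, read 12.47 and 12.40. Zona pellucida domain genes, which shape the apical matrix, had 7 of 11 detected (63.64%, against 58.6% of all genes). Of these, qsm read 8.96 ± 0.01, dyl 8.11 ± 0.13 and pio 7.63 ± 0.10. The dim members of that list were neo at 3.70 ± 0.12, tyn at 3.42 ± 0.30, dy at 2.71 ± 0.23 and sha at 2.37 ± 0.15. Of 10 epidermal wound genes 9 were detected, led by the JNK gene bsk at 9.85 ± 0.08 and the Fos gene kay at 9.71 ± 0.26, and Ets21C was dim at 2.92.

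**Figure D4:**
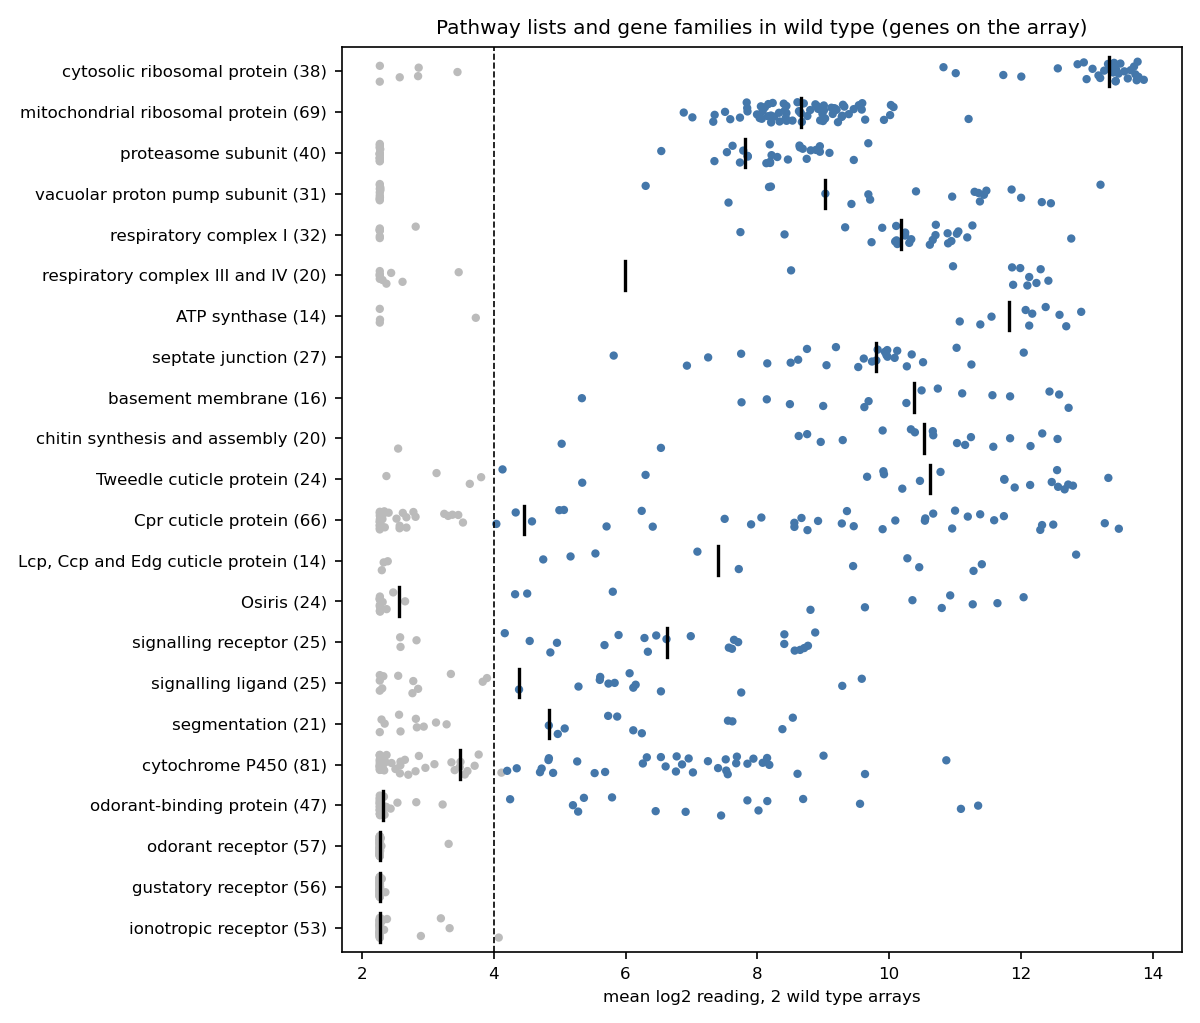
Mean wild type log2 reading of each gene of 22 pathway lists and gene families (points; blue where detected, grey where not), with the median as a bar and the detection minimum of 4 as a dashed line. Ribosomal, mitochondrial and junction genes lie at the right, the 3 chemoreceptor families lie at or near the floor, and several families hold both a bright and a floor cluster.

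Genes of general cell function were read far above the median of all genes. All 69 mitochondrial ribosomal protein genes were detected, at a median of 8.66 and none under 6.88, with mRpS5 highest at 11.20 ± 0.02 and mRpS22 next at 10.07 ± 0.10. All 20 genes of the secretory pathway were detected at a median of 9.54, led by the subunits of the translocon that moves proteins into the endoplasmic reticulum, Sec61beta at 11.82 ± 0.04, Sec61alpha at 11.69 ± 0.01 and Sec61gamma at 11.48 ± 0.06. All 14 citric acid cycle genes and all 10 glycolysis genes were detected, at medians of 10.25 and 9.43. Ogdh led the cycle at 11.22 ± 0.07, and Tpi and Eno led glycolysis at 11.88 ± 0.02 and 11.80 ± 0.10. Chaperone genes had 17 of 18 detected at a median of 10.24, among them the mitochondrial chaperone genes Hsp60A at 11.70 ± 0.05 and Hsc70-5 at 11.53 ± 0.04. Only Hsc70-2 was dim, at 2.37 ± 0.04.

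Within the large complexes, subunits and their related copies were sharply apart. Related copies are genes of the same family that carry T, R or L after the name of the subunit, several of which are known from the testis. None of the 32 related copies of the proteasome, respiratory complexes I, III and IV and ATP synthase was detected, and 28 lay at the floor. Of the 74 other genes of these complexes 71 were detected. The exceptions were ND-B12, at 2.81, and ND-B8, at the floor, of complex I and UQCR-11, at 3.47 ± 0.17, of complex III. All 26 proteasome subunits were detected at means between 6.54 and 9.68, led by Prosbeta7 with 9.77 and 9.60, Rpn6 with 9.43 and 9.49, and Prosbeta5 with 9.15 and 9.04. Their related copies Rpn13R, Prosbeta4R2, Prosalpha4T1 and Prosalpha4T2 read 2.28, 2.27, 2.27 and 2.27. All 10 ATP synthase subunits were detected at means between 11.07 and 12.91, while ATPsynepsilonL was the highest of 4 copies, at 3.73.

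Families that hold several genes for 1 subunit were mixed, with both dim and detected copies. The vacuolar proton pump had 20 of 31 genes detected (64.52%, against 58.6% of all genes) and 11 at the floor. Besides Vha16-1, Vha26 read 12.42 and 12.49, Vha13 read 12.33 and 12.30, and VhaPPA1-1 read 11.95 and 12.05, whereas Vha16-4, Vha14-2 and VhaPPA1-2 lay at the floor. Other copies were detected, and are named here after their values were seen: Vha100-2, Vha100-5, Vha100-1 and Vha100-4 read 10.41, 9.68, 9.43 and 8.21, and Vha36-3 read 6.30 ± 0.13. Among cytosolic ribosomal protein genes 32 of 38 were detected, at a family median of 13.33. The dim ones included RpL22-like at 3.45, RpS19b at 2.86, RpL37-2 at 2.85 and RpS10a at 2.57, each named as a further copy of a subunit. RpS5b, with 12.003 and 12.007, and RpL24-like, at 10.82, also named after their values were seen, were detected. They were counted in the family by name alone, so RpL24-like need not be a copy of a subunit. In the cytoskeleton list 9 of 14 genes were detected (64.29%). The tubulin gene betaTub56D read 12.39 on both arrays and the cofilin gene tsr read 12.34 and 12.27, while the actin gene Act79B and the tubulin genes betaTub85D, alphaTub84D and alphaTub67C were dim at 3.07, 2.47, 2.38 and 2.37. The metallothionein MtnA stood beside MtnD at 5.71 ± 0.03, MtnB at 2.61 and MtnC at the floor.

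The 3 families of chemoreceptors, which adult and larval sense organs use in few cells, were dark. Of 166 genes for odorant, gustatory and ionotropic receptors, 0 were detected and 158 lay at the floor. The highest odorant receptor reading was that of the shared coreceptor gene Orco, with 3.29 and 3.34, and the highest gustatory one was that of Gr21a, with 2.29 and 2.42. Ir76b passed the minimum on replicate 2 only, with 3.91 and 4.24, and Ir21a, Ir87a and Ir25a read 3.33 ± 0.12, 3.20 ± 0.12 and 2.89. Odorant-binding protein genes behaved otherwise, with 15 of 47 detected (31.91%), though still a smaller share than the 58.6% of all genes. Obp83g read 11.42 and 11.28, Obp44a read 11.11 and 11.07, and Obp99a read 9.60 and 9.51.

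More signalling receptor genes than ligand genes were detected. Of 25 receptor genes 22 were detected (88%), at a median of 6.62, against 13 of 25 ligand genes (52%) at a median of 4.38. Of all genes 58.6% were detected, with a median of 5.16 over all genes. The BMP receptor gene tkv led with 8.90 and 8.86, followed by the Toll receptor gene Tl at 8.77 ± 0.09, wgn at 8.71 ± 0.04, sax at 8.65 ± 0.04 and Pvr at 8.57 ± 0.00. The dim receptors were tor at 2.83, ptc at 2.58 and sev at 2.58. The brightest ligands were Pvf1, for a PDGF and VEGF related factor, with 9.59 and 9.58, and the EGF receptor ligand gene spi, with 9.33 and 9.25. The BMP gene gbb read 7.75 ± 0.03, the netrin gene NetB 6.54 ± 0.14 and the TNF gene egr 6.15 ± 0.09. The guidance cue gene sli, at 3.90 and 3.89, and Wnt6, at 3.82 and 3.84, lay just under the minimum, and Pvf3 and upd1 read 3.35 and 2.85.

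Patterning genes were partly detected. The Hox list had 5 genes on the array with a probe set of their own. Antp read 7.55 and 7.76, though a further probe set of it lay at the floor. Scr read 6.36 and 6.42 and Dfd read 5.20 and 4.93, while pb was dim at 3.02 and 3.06; tsh, listed with them as a trunk selector, is given above. Of 21 segmentation genes 11 were detected (52.38%, against 58.6% of all genes). The pair-rule gene hry read 8.54 ± 0.04, the hedgehog effector gene ci 8.38 ± 0.01, cad 7.62 ± 0.03, nkd 7.55 ± 0.01 and kni 6.25 ± 0.09. The pair-rule gene eve, the gap genes hb and tll, and gsb-n were dim at 3.28 ± 0.12, 3.12 ± 0.16, 2.94 and 2.83 ± 0.30. Of 21 cell cycle genes 17 were detected at a median of 6.08. The mitotic cyclin genes CycB and CycB3 read 8.96 ± 0.08 and 8.47 ± 0.01, the replication genes dup and Mcm6 7.77 ± 0.01 and 7.18 ± 0.02, and Cdk4 6.71, while aurB, mad2, thr and Cdk2 were dim from 2.85 to 2.41.

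In the ecdysone list, which covers the making, sensing and removal of the moulting hormone, 11 of 23 genes were detected (47.83%, against 58.6% of all genes). The nuclear receptor gene ftz-f1 read 11.42 and 11.83, the widest gap of any gene with a mean between 11 and 12, and a further probe set of it read 5.28. Cyp18a1, for an enzyme that breaks ecdysone down, read 10.83 and 10.90. Hr39, ImpL2 and the receptor gene EcR read 8.32 ± 0.10, 8.31 ± 0.01 and 7.34 ± 0.14. The enzyme genes nvd, sro and shd of hormone synthesis read 2.48, 2.37 and 2.35, and the early-response receptor gene Hr4 read 2.92 and 3.61.

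Of 17 genes of immune recognition and antimicrobial peptides 6 were detected: the NF-kB inhibitor gene cact at 8.60 ± 0.02, the NF-kB genes dl and Rel at 6.90 ± 0.23 and 6.34 ± 0.10, PGRP-LE at 6.36 ± 0.12, GNBP2 at 5.42 ± 0.01 and, as the last of them, PGRP-LB. The adaptor gene imd was dim at 3.79 ± 0.10, PGRP-SC2 at 3.23 ± 0.11, and the antimicrobial peptide genes Drs and Mtk at 3.23 ± 0.28 and 2.98 ± 0.19. Of 10 clock genes 4 were detected, cwo at 10.18 ± 0.08, dco at 9.09 ± 0.02, Pdp1, and tim at 5.25 ± 0.10. The core genes per and cyc were dim at 2.80 and 2.78, vri at 3.85 ± 0.02 and cry at the floor. Of 11 genes of sex determination and dosage compensation 8 were detected, with Sxl at 9.10 ± 0.19, tra2 at 7.59 ± 0.03 and msl-3 at 6.45 ± 0.25. Dim there were msl-1, fru and dsx at 3.85, 2.54 and 2.28. Shares detected in the immune, clock and sex determination lists were 35.29%, 40% and 72.73%, against 58.6% of all genes.

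Detoxification families were read in part. Glutathione transferases had 26 of 34 detected (76.47%), led by GstE12 at 11.38 ± 0.02, GstD1 at 11.01 ± 0.05 and GstT4 at 10.98 ± 0.10. Cytochrome P450 genes had 35 of 81 detected, a smaller share (43.21%) than that of all genes (58.6%). After Cyp18a1 came Cyp304a1 at 9.63 ± 0.05 and Cyp6a23 at 9.004 ± 0.005. Glucuronosyl transferases had 18 of 35 detected (51.43%), with Ugt302C1 at 9.05 ± 0.03 and Ugt37D1 at 8.95 ± 0.06. Tetraspanins had 26 of 32 detected (81.25%), led by Tsp42Ea at 12.24 ± 0.04 and Tsp42Ee at 11.60 ± 0.01. Serpins had 13 of 27 detected (48.15%), with Spn88Ea at 11.21 ± 0.07 and Spn55B at 10.02 and 9.98. Mucins had 4 of 13 (30.77%), with Muc91C at 9.21 ± 0.01.

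Genes next to each other in chromosome order, among those with a probe set of their own, tended to share a state. Genes without one were skipped, so they can lie between neighbours or within a run. In the gene order of the reference annotation, a detected gene was followed by another detected gene in 66.07% of 7000 cases, and a gene that was not detected was followed by one in 48.56% of 4891 cases. A gene at the floor was followed by another at the floor in 42.81% of 3013 cases, against 19.4% after the other genes. A gene with a mean of at least 12 was followed by another in 4.918% of 122 cases, against 0.9856% after dimmer genes. Neighbours are not independent of each other, since gene families lie in clusters and close copies can share probes, so these shares are a description. Runs of 3 or more neighbours that all read at least 10 numbered 8. The longest had 4 genes: TwdlM, TwdlP, TwdlB and TwdlL of the cuticle, Rtnl1, SelT, vkg and Col4a1 around the divergent collagen IV pair, and CG13033, CG4229, Mipp1 and mbf1. Those of 3 genes included Cpr65Ea, Cpr65Eb and Cpr65Ec, the Osiris run named above, Vajk1, Vajk2 and Vajk3, and CG13044, CG13043 and CG13063.

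Set beside the altered genotypes, the wild type embryos had much the same genes detected. The arrays labelled grh mutant had 7052 genes detected and those of grh overexpression 7140, against 7016 in wild type. Of the wild type genes, 6528 (93.04%) were detected in all 3 genotypes. The grh probe set itself read 9.05 and 9.02 on the arrays labelled grh mutant and 12.27 and 12.38 in grh overexpression, against 7.36 and 7.45 in wild type. The higher reading on the arrays labelled grh mutant does not check that label, because the sources used here do not say what grhB37 does to the transcript. A further grh probe set was dim, with a wild type mean of 3.25. Differences below are between strains, so grh dose, strain background, driver and embryo collection cannot be told apart in them.

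Most rows differed a little. With limma and Benjamini-Hochberg adjustment over 8632 rows, 80.9% of rows were called in arrays labelled grh mutant against wild type (36.3% higher, 44.6% lower), and 80.1% in grh overexpression against wild type (36.0% higher, 44.1% lower). A difference of at least 2-fold was rarer, at 17.8% and 21.4% of rows. The 40 brightest wild type genes stayed bright. In arrays labelled grh mutant 6 of them were called higher, 17 lower and 17 were not called, with changes from -0.46 log2 units for Hsc70-4 to 0.39 for CG13159. In grh overexpression 3 were called higher, 12 lower and 25 were not called, from -0.72 for Cpr65Ea to 0.13 for RpL32. None reached 2-fold in either genotype, and the medians of the 40 were -0.07 and -0.01, beside -0.07 and -0.08 over all rows.

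The counts of detected genes per list were also alike in most lists. The muscle list had 14 detected in each genotype and the septate junction list 27. Tracheal genes had 13 detected in arrays labelled grh mutant and 10 in the embryos overexpressing grh, against 13 in wild type. Germline and maternal genes had 4 detected in arrays labelled grh mutant and 9 in the embryos overexpressing grh, against 7 in wild type. Immune genes had 7 detected in arrays labelled grh mutant and 11 in the embryos overexpressing grh, against 6 in wild type. Muscle genes, though detected throughout, were called higher for 14 of 14 in arrays labelled grh mutant (median change 0.53 log2 units) and lower for 13 of 14 in grh overexpression (median -0.75). Mitochondrial ribosomal protein genes were called lower for 52 of 69 and higher for 7 in arrays labelled grh mutant (median -0.51). In grh overexpression they were called lower for 65 and higher for 1 (median -0.59). Other mitochondrial lists also fell. Respiratory complex I had 16 of 25 tested genes called lower and 6 higher in arrays labelled grh mutant (median -0.34), and all 25 lower in grh overexpression (median -0.57). The citric acid cycle had 9 of 14 lower and 5 higher (median -0.21), and 13 lower and 1 higher (median -0.56). ATP synthase had 5 of 10 called each way in arrays labelled grh mutant and 10 lower in grh overexpression. Over all rows, 36.3% were called higher and 44.6% lower in arrays labelled grh mutant, and 36.0% and 44.1% in grh overexpression. The medians over all rows were -0.07 and -0.08. Muscle was not alone in its shift, though not every list shared it. Of 19 tested neuronal genes, 16 were called higher and 1 lower in arrays labelled grh mutant (median 0.73), and 4 higher and 11 lower in grh overexpression (median -0.35). Of 9 tested heart genes, 6 were called higher and 2 lower in arrays labelled grh mutant (median 0.64), and 1 higher and 6 lower in grh overexpression (median -0.69). Of 13 tracheal genes, 8 were called higher and 1 lower in arrays labelled grh mutant (median 0.37), and 2 higher and 6 lower in grh overexpression (median -0.13). That last median lay close to the one over all rows. Glial genes went otherwise: of 9 tested, 2 were called higher and 6 lower in arrays labelled grh mutant (median -0.69). In grh overexpression 0 glial genes were called higher and 6 lower (median -0.49). Both comparisons share the wild type arrays, so a shared direction in them is not 2 separate results.

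Some genes crossed the detection minimum between genotypes, by small or large steps. In arrays labelled grh mutant 207 wild type genes were dim, 1.73% of all genes, and 254 genes dim in wild type were detected (2.12%). In grh overexpression 215 wild type genes were dim (1.79%) and 382 genes dim in wild type were detected (3.19%). Of the 3073 genes at the floor in wild type, 5 were detected in arrays labelled grh mutant and 76 in the embryos overexpressing grh. The genes named below were chosen by these states, so their values describe that choice.

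Among genes dim in arrays labelled grh mutant, CG13946 read 3.22 and 3.12 there, against 8.04 and 7.93 in wild type, at least 15.8-fold lower (limma adjusted p = 1.12e-11). CG9877 read 2.84 and 2.83, against 7.45 and 7.34 in wild type, at least 10.5-fold lower. The yellow family gene yellow-d2 read 2.50 on both arrays, against 7.36 and 7.12 in wild type, at least 9.46-fold lower. The cuticle protein gene Lcp65Ad was at least 8.51-fold lower and KFase, for the tryptophan-breakdown enzyme kynurenine formamidase, at least 8.29-fold lower. CG30148 was dim in both altered genotypes, with 2.33 and 2.34 in arrays labelled grh mutant and 2.38 on both arrays of grh overexpression, against 7.20 and 7.04 in wild type. It was the brightest of 37 such genes, and at least 8.68-fold lower in either genotype. In the other direction, CG4835 read 7.50 and 7.41 in arrays labelled grh mutant, against 2.82 and 2.83 in wild type, at least 10.98-fold higher. The esterase gene alpha-Est2 was at least 9.67-fold, CG13311 at least 8.16-fold, CG43066 at least 6.59-fold, Mur29B at least 6.09-fold and Rnf146 at least 4.99-fold higher. Of these, CG30148, CG4835, alpha-Est2, CG43066 and Mur29B entered the test through a single genotype, which fixed their direction.

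In grh overexpression CG5402 read 3.07 and 2.91, against 9.74 and 9.80 in wild type, at least 54.5-fold lower (limma adjusted p = 8.54e-15). The bounds were 14.4-fold for CG18581, 12.7-fold for GILT3, 12.6-fold for CG34290 and 9.51-fold for Cyp4g15, all lower. The opposite crossings had larger bounds. CG34227 read 12.13 and 12.08 in grh overexpression, against 2.28 and 2.29 in wild type, at least 275-fold higher. The cuticle protein gene Cpr64Ac read 11.41 and 11.39, against 2.64 and 2.71 in wild type, at least 169-fold higher. Fcp3C, named for a follicle cell protein, read 11.23 and 11.11, against 2.91 and 2.67 in wild type, at least 144-fold higher. The phosphatase gene Alp9 was at least 87.7-fold, Cyp303a1 at least 75.3-fold and CG13258 at least 70.4-fold higher. These 6 genes were dim in the arrays labelled grh mutant too and entered the test through grh overexpression alone, so their direction was fixed by the filter. A bound sets the bright mean against the minimum of 4.

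**Figure D5:**
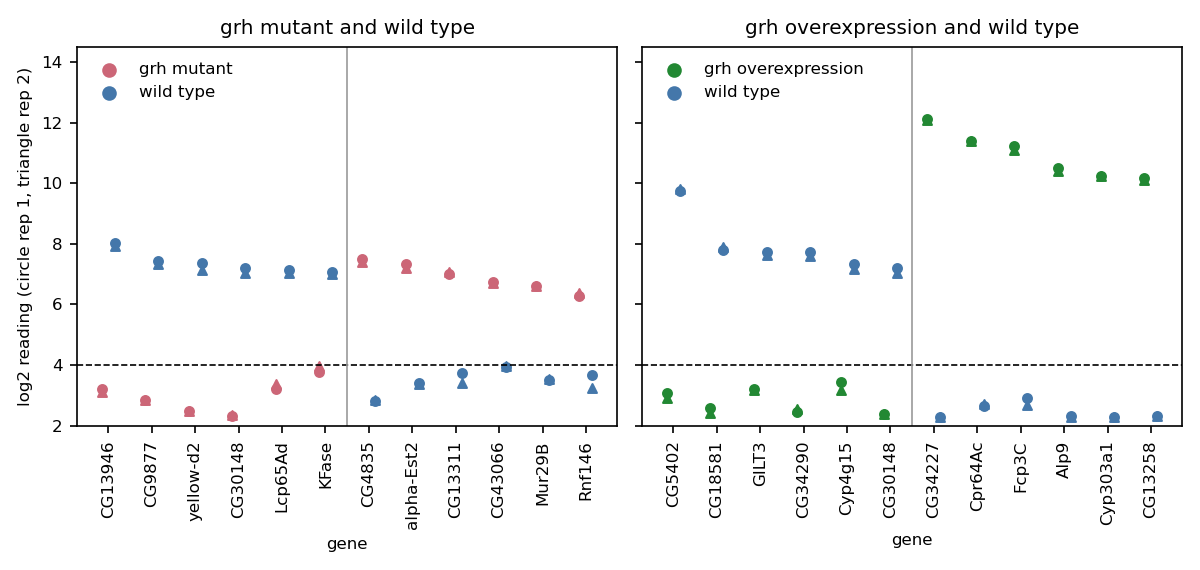
Log2 readings on each array (circle, replicate 1; triangle, replicate 2) of the genes that crossed the detection minimum of 4 (dashed) and were named by the rule. Left, arrays labelled grh mutant and wild type; right, grh overexpression and wild type. In each panel the genes left of the grey line were dim in the altered genotype, and those right of it were dim in wild type.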

How the data were processed

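RNA of stage 16 embryos was labelled with biotin and read on 1-colour Affymetrix arrays, 2 for each of 3 genotypes. Per the labels' protocols, total RNA was reverse transcribed with random primers, while the molecule is given as polyA RNA. The deposited values are log2 readings, 1 per probe set and array; the log2 scale and the absence of centring were read from the values. Per the submitters' processing notes the tools were GCRMA and MAS5, listed without role or version; a genome build was not found in the sources. The values were used as deposited. Precision is limited by the 2 arrays per group.

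The platform annotation supplied gene names. Of 18952 probe sets, 13647 had 1 symbol, 402 several, 4720 none and 183 were controls. Symbols were updated by gene identifier for 13544 and kept for 103. The annotation of Release 6 plus ISO1 MT gave names and gene order only.

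Levels were summarised with Python 3.11.15, pandas 2.3.3 and numpy 2.4.6. Of 17104 rows, 1 per gene or unnamed probe set, 8632 with at least 4 on at least 2 arrays were fitted with limma 3.58.1 in R 4.3.3 (3-group means model, eBayes with an intensity trend, 3 residual degrees of freedom, 7.93 prior), Benjamini-Hochberg adjusted over all rows and called at an adjusted p under 0.05, two-sided. The fit was tested on simulated data. Lists of 19 tissues and 22 pathways and 28 name-based families were described by counts and medians only, over genes with a probe set of their own; others were not analysed here. Members and lists were chosen with earlier results of these data known.

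The genes named were grh, the 40 brightest, up to 5 of the brightest detected and 4 dim members of each list, all Hox and detected neuropeptide genes, the 8 with the largest replicate gaps, 3 on each side of the detection minimum, and 6 each way for each altered genotype among called genes that crossed it. Alternatives were other detection minimums, floor tolerances, probe set choices, normalization, filters, a fit without the trend, a replicate block and leaving out each array.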

Additional observations from a re-analysis of the deposited data

How the results depend on the processing

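Of the alternative counts, 64 stayed within 1.5 times the reported ones and 1 did not. This was the number of genes dim in wild type and detected in arrays labelled grh mutant, which was 162 with a detection minimum of 3. With a minimum of 3, 5 or 6 the wild type had 7787, 6119 or 4929 genes detected, 7068 after quantile normalization and 6516 with the dimmest probe set for each gene. Of the alternative list counts 337 stayed so and 8 moved, all of them for heart genes or for lists with at most 2 detected genes. Leaving out 1 array gave 7050 to 7070 detected and 3126 to 3138 floor genes. It gave 223 to 239 and 237 to 257 wild type genes dim in the mutant and in the overexpression arrays, 270 to 279 and 393 to 420 genes dim in wild type and detected there, and 6360 to 6850 and 6170 to 6736 rows called, where a lone array is assumed to vary like the other groups. All 210 alternative fold changes kept their direction and call. They belong to grh and to genes named because they were called and crossed the detection minimum. That choice made a change of call unlikely, so they say nothing of other genes.

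With the replicate number as a block, 7171 and 7127 rows were called in the mutant and in the overexpression arrays. Deviations of same-numbered arrays correlated at 0.136 to 0.245, but with 2 numbers the arrays share only a number. Quantile normalization moved 230 of 529 named wild type levels by more than their replicate SD, and the dimmest probe set moved 59, among them Antp to 2.27 and ftz-f1 to 5.28. Readings near the floor limit what can be said of dim genes.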
